A study of Mus musculus with 9 samples.

Results

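The genes described here are 10 mitochondrial chaperones and proteases (*Hspd1*, *Hspe1*, *Hspa9*, *Dnaja3*, *Trap1*, *Lonp1*, *Clpp*, *Yme1l1*, *Afg3l2* and *Htra2*) out of 52636 genes counted in bulk RNA sequencing of mouse left ventricle. They were chosen by name, with earlier results of these data known, and all 10 passed the low-count filter. The 9 libraries came from hearts of C57BL6J mice aged 16 weeks, and the study asked what the loss of VDAC2, a porin of the outer mitochondrial membrane, does to the heart. Libraries 1 to 5 carry the label WT, which in this study covers littermates with the floxed *Vdac2* allele or the Cre transgene alone. Libraries 6 to 9 carry the label KO, a *Vdac2* flox/flox line crossed with αMHC-Cre. Because that promoter drives Cre in cardiac myocytes, the other cells of the ventricle keep *Vdac2*. The labels do not say that each library came from a separate mouse, so the p-values measure only the spread between these libraries.

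Most mitochondrial proteins are made in the cytosol and enter the organelle unfolded. The mitochondrial Hsp70 (*Hspa9*) pulls them into the matrix, its J-protein partner (*Dnaja3*) stimulates its ATPase, and a chaperonin chamber of HSP60 (*Hspd1*) with its lid HSP10 (*Hspe1*) folds them, while *Trap1* is the Hsp90 of mitochondria. Proteins that fail are degraded by LONP1 and CLPP in the matrix, by the AAA proteases YME1L1 and AFG3L2 of the inner membrane and by HTRA2 in the intermembrane space. When unfolded protein builds up, cells can raise the transcripts of these chaperones and proteases, a response linked to the transcription factors ATF4, ATF5 and CHOP (*Ddit3*).

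Total counts ran from 27345052 to 44673988 per library. A count of 3, the lowest taken as detected, equalled 0.0693 to 0.114 CPM, the unit of level used here, which scales each count by its library's total after TMM normalization, and this floor covers counting error only. Libraries labelled WT were run on lane 1 and those labelled KO on lane 2, and the labels also divide the libraries by *Xist* (at most 0.152 CPM under WT against 335 to 587 CPM under KO), so lane, sex and label cannot be told apart. Library 3, labelled WT, stood apart. Its 6 cardiomyocyte markers summed to 12547 CPM, where the other 8 libraries had 42440 to 60276 CPM, and all 6 lay below the others. Its 6 fibroblast markers summed to 5358 CPM against 964 to 1457 CPM, with 4 above and 1 below the others, and its 4 proliferation markers to 440 CPM against 17.3 to 42.6 CPM, with all 4 above. The 5 macrophage markers summed to 839 CPM against 197 to 439 CPM, all 5 above, and the 5 endothelial markers to 336 CPM against 446 to 692 CPM, 4 below. Mitochondrially encoded genes took 9.07% of its counts against 16.8 to 19.2%. Estimates between the labels are therefore given with and without library 3. In bulk tissue fewer cells of a type and less RNA per cell cannot be told apart.

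The targeted gene was read first. *Vdac2* (ENSMUSG00000021771, chr14:21825238-21845879, GRCm38) stood at 20.2, 366, 58.5, 365 and 21.3 CPM from library 1 to library 5 (label WT) and at 384, 20.5, 421 and 19.1 CPM from library 6 to library 9 (label KO). Libraries 1 and 5 were thus as low as the lowest libraries labelled KO, and libraries 6 and 8 were the highest of all, so the level goes against the label in these 4 libraries. Library 3, labelled WT, was also far below libraries 2 and 4. At 58.5 CPM it lay between the low and the high libraries, so it was not counted among the 4. The estimate for the libraries labelled KO was a log2 fold change of 0.35 (SE 1.19, adjusted p = 0.92, edgeR quasi-likelihood test), and 0.12 (SE 1.45) without library 3. Whether labels were exchanged was not tested and cannot be told from the labels, so groups are called by their label throughout, and the estimates and calls between the labels do not measure the loss of *Vdac2*. The genes had been put forward for a comparison of libraries selected on their measured *Vdac2* level. The labels give no such groups, so here no mean, fold change or test was taken over libraries sorted by *Vdac2*, and each library's value is shown beside its *Vdac2* level instead.

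No difference between the libraries labelled KO and those labelled WT passed the test for any of the 10 genes. The edgeR quasi-likelihood test with Benjamini-Hochberg adjustment called 0 of 10 at an adjusted p under 0.05, against 0.0551% of the 16322 genes tested, and 0 of 10 reached an unadjusted p under 0.05, against 6.11% of all genes. DESeq2 also called 0 of 10, against 0.429% of all genes. With backgrounds this low, a count of 0 in 10 genes does not set them apart from other genes. The estimate was above 0 for 8 genes and below 0 for 2, with a median log2 fold change of 0.070 beside -0.018 over all genes tested. Without library 3 the median was 0.016 beside 0.0031, and again 0 of 10 were called, against 0.382% of all genes. Without library 7 the median was 0.13, with *Hspd1* at 0.20 and *Lonp1* at 0.16.

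**Figure D1:**
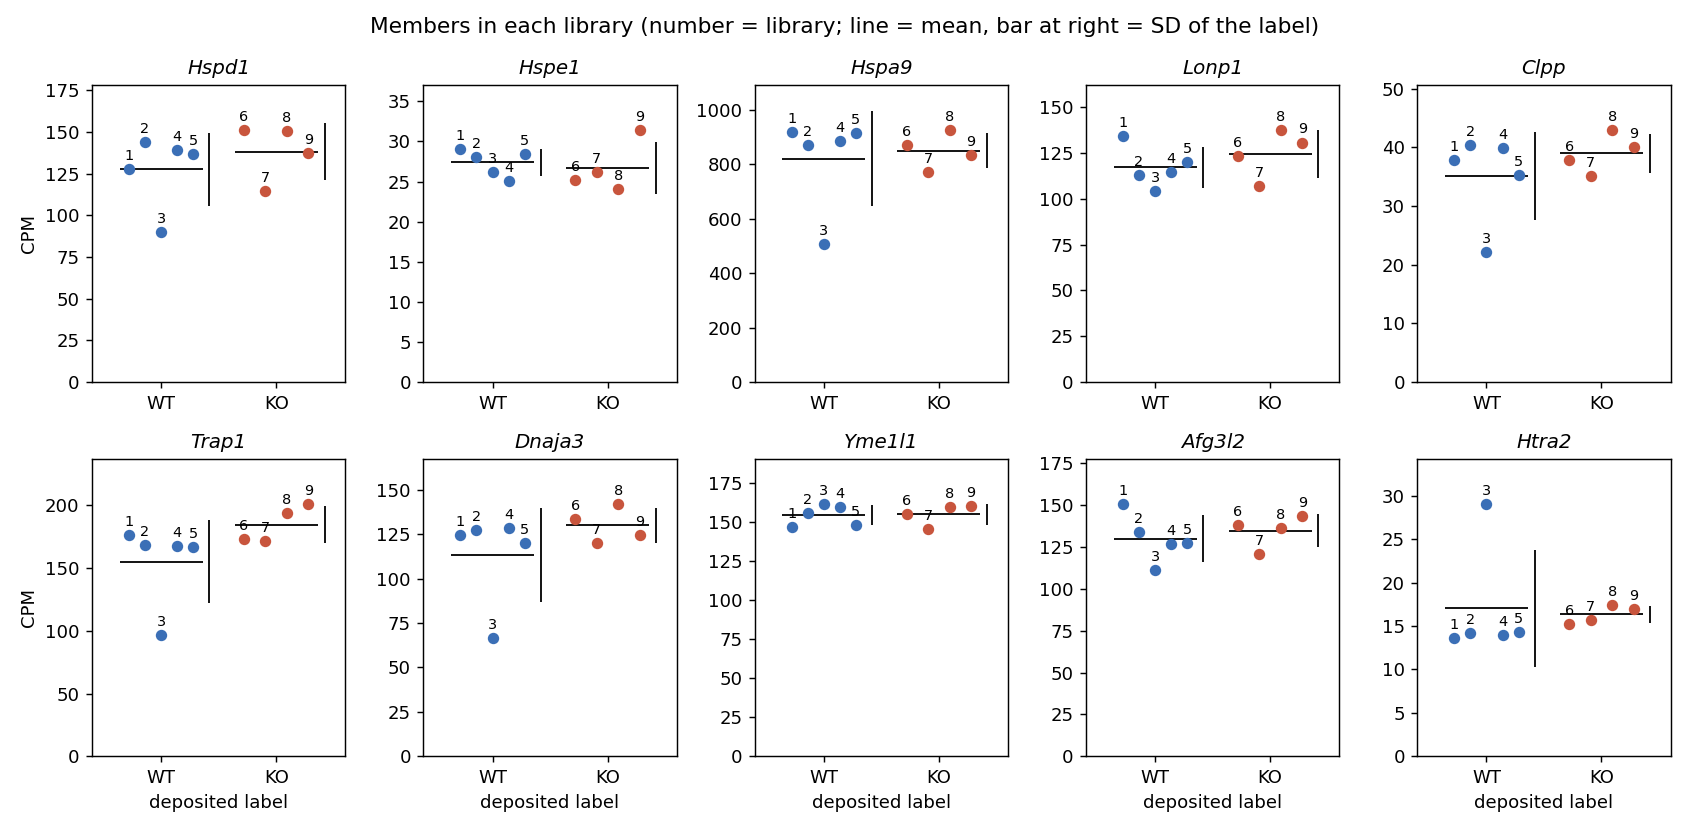
Level of each of the 10 genes in each library (CPM, y axis from 0) by deposited label (x axis). Points are libraries with their number, the horizontal line is the mean and the vertical bar the SD of the label. Library 3 lies well below the other libraries for *Hspa9*, *Clpp*, *Trap1* and *Dnaja3* and above them for *Htra2*, while the other 8 libraries lie close together.

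The chaperonin genes start within the same stretch of DNA but did not run alike across the libraries. *Hspd1* (ENSMUSG00000025980, chr1:55077835-55088243, minus strand) encodes the chamber HSP60. It measured 128, 144, 90.1, 139 and 137 CPM in the WT-labelled libraries and 151, 114, 150.4 and 137 CPM in the KO-labelled ones. Library 3 was lowest, library 7 next, and the labels overlapped (128 ± 21.8 CPM, SD, n = 5, against 138 ± 17.2 CPM, n = 4). The log2 fold change was 0.12 (SE 0.15, adjusted p = 0.79), with a 95% interval of 0.854 to 1.38 for the fold change, and 0.0067 without library 3. *Hspe1* (ENSMUSG00000073676, chr1:55088132-55091307, plus strand), the lid HSP10, measured 29.1, 28.1, 26.2, 25.0 and 28.5 CPM in the WT-labelled libraries and 25.1, 26.2, 24.1 and 31.4 CPM in the KO-labelled ones. Here library 8 was lowest and library 9 highest, and library 3 was at 96.7% of the median of the others, where *Hspd1* was at 65.1%. Its log2 fold change was -0.036 (SE 0.097, adjusted p = 0.90; 95% interval of the fold change 0.838 to 1.14), and -0.057 without library 3. Over the 9 libraries the log2 CPM of the pair had a Pearson r of -0.03, and -0.28 without library 3, as a description of libraries that share little spread.

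The pair shares its start region, so its sequence is shown together with the windows of *Clpp* and *Dnaja3*, the members whose levels ran most alike over the 9 libraries (r = 0.98), although without library 3 their r of 0.78 was below those of *Clpp* with *Yme1l1*, *Trap1* with *Htra2* and *Lonp1* with *Afg3l2*. RefSeq promoter windows of GRCm38.p6, from 250 bases before to 50 bases after a gene's start, were matched for 7 of the 10 genes (8 windows). *Hspd1* has a pair of them, one of which overlaps the *Hspe1* window by 285 bases on the opposite strand. Both strands were searched for 5 motifs: the heat shock element in its tail-to-tail form TTCNNGAA and its head-to-head form GAANNTTC, the C/EBP-ATF composite TGATGNAA, the NRF-1 motif GCGCANGCG and the ETS motif CCGGAAG. Capitals mark every match, and matches may overlap. The windows run 5′ to 3′ on the strand of the gene, with *Hspe1* at chr1:55087898-55088197 (plus), *Clpp* at chr17:56990014-56990313 (plus) and *Dnaja3* at chr16:4683820-4684119 (plus). The RefSeq start of *Dnaja3* lies inside the gene as the annotation used for its coordinates gives it, downstream of its first annotated base, so the window shown is that of the RefSeq transcript.
Hspe1: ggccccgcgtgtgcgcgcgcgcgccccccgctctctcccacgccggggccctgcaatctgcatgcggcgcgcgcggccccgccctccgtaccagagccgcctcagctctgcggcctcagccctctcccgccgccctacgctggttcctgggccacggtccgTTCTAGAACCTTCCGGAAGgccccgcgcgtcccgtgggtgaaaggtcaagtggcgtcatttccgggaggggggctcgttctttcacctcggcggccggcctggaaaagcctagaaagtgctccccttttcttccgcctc
Clpp: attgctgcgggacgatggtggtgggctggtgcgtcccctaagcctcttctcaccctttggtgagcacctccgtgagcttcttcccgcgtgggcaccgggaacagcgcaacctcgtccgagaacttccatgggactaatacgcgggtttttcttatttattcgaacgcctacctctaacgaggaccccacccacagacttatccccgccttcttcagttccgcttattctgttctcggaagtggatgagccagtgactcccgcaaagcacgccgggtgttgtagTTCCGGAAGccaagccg
Dnaja3: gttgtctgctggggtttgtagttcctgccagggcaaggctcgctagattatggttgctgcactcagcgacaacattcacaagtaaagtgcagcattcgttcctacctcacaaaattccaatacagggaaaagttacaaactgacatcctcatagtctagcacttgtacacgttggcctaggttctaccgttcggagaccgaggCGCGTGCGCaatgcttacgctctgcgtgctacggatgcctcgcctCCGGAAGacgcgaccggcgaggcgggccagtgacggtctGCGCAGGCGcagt
In the *Hspe1* window the capitals run from base 162 to base 180 and hold TTCNNGAA at bases 162 to 169 and 172 to 179, GAANNTTC at bases 167 to 174, and CCGGAAG on either strand at bases 171 to 177 and 174 to 180, each overlapping its neighbour. The same bases lie in the overlapping *Hspd1* window, at chr1:55087883-55088182 (minus). As for *Dnaja3*, the RefSeq start of that window lies inside the annotated gene. The matched bases are thus downstream of the first annotated base of *Hspd1*. The other *Hspd1* window, at chr1:55088194-55088493 (minus), spans that first base and holds GCGCANGCG alone. In *Clpp* 1 run, from base 284 to base 292, holds TTCNNGAA and CCGGAAG in overlap. *Dnaja3* holds CCGGAAG at bases 249 to 255 and GCGCANGCG at bases 204 to 212 and 288 to 296. TTCNNGAA was found for 3 of the 7 matched genes (*Hspd1*, *Hspe1* and *Clpp*) and in 8.52% of all 32851 windows, and GAANNTTC for 2 genes and in 7.86%. CCGGAAG was found for 5 genes (*Yme1l1* and *Dnaja3* in addition) and in 8.86% of windows, and GCGCANGCG for 2 genes (*Dnaja3* and the other *Hspd1* window) and in 6.25%. TGATGNAA was found for 0 genes and in 3.97% of windows. The members are counted by gene, with a match in either *Hspd1* window enough, and the percentages by window. For TTCNNGAA, GAANNTTC and CCGGAAG the matches of *Hspd1* and *Hspe1* are the same bases, counted for both genes. The counts of genes can therefore not be set against the percentages. A match is a description of the letters only.

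Counting limits bear on this pair. Of the 50-base stretches of its exons, 42.1% of those of *Hspd1* also occur in other genes, mostly in the pseudogene *Hspd1-ps3*, which took 220 counts in all against 40403 for *Hspd1* (0.545%). For *Hspe1* the share was 22.8%, mostly with the pseudogene *AC117239.2*, which has no entry under that name among the genes counted. The exons of the pair overlap by 112 bases on opposite strands. How reads with several alignments and the strand were treated is not given in the sources used here, so the levels of both are uncertain to that extent. Across the 8332 other genes with a mean of at least 10 CPM, those most like *Hspd1* over the 9 libraries were *Alas1*, the first enzyme of heme synthesis (r = 0.98), the mitochondrial gene *Opa3* (r = 0.97) and *Phb2*, a subunit of the inner-membrane prohibitin ring (r = 0.97). Without library 3 these were 0.92, 0.90 and 0.89.

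The Hsp70 system held the most abundant member. *Hspa9* (ENSMUSG00000024359, chr18:34937414-34954357, minus strand), the import motor, measured 917, 872, 509, 887 and 913 CPM in the WT-labelled libraries and 869, 771, 925 and 834 CPM in the KO-labelled ones. Leaving library 3 aside, the highest of the other 8 libraries was 1.20 times the lowest. The log2 fold change was 0.052 (SE 0.19, adjusted p = 0.93; 95% interval of the fold change 0.768 to 1.40), and -0.085 without library 3. *Dnaja3* (ENSMUSG00000004069, chr16:4639989-4707695, plus strand), its J-protein, measured 125, 128, 66.7, 128 and 120.3 CPM in the WT-labelled libraries and 134, 119.9, 142 and 125 CPM in the KO-labelled ones. Library 3 was at 52.8% of the median of the others, the lowest such share among the 10 genes, and the other 8 libraries overlapped between labels. The log2 fold change was 0.20 (SE 0.19, adjusted p = 0.72), and 0.048 without library 3. Its exons overlap those of *Vasn* by 160 bases on the same strand and *Coro7* by 153 bases on the opposite strand, of 3912 in all.

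*Trap1* (ENSMUSG00000005981, chr16:4039971-4077827, minus strand), the Hsp90 member, had the largest estimate of the 10 genes over all 9 libraries. It measured 176, 169, 96.8, 167 and 167 CPM in the WT-labelled libraries and 173, 171, 194 and 201 CPM in the KO-labelled ones. Libraries 8 and 9 were the highest, but library 1, labelled WT, lay above libraries 6 and 7, so the labels overlapped. Its mean was 155 ± 32.9 CPM (SD, n = 5) under the label WT against 185 ± 14.8 CPM (n = 4), and the log2 fold change of 0.25 (SE 0.17) had an adjusted p of 0.68 in the edgeR test. The 95% interval of the fold change, 0.909 to 1.56, leaves room for a rise of up to 1.56 times. Without library 3 the estimate was 0.12 (SE 0.070, adjusted p = 0.55).

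The matrix proteases were *Lonp1* and *Clpp*. *Lonp1* (ENSMUSG00000041168, chr17:56614297-56626887, minus strand), an ATP-dependent protease, measured 134, 113, 104, 114 and 120.0 CPM in the WT-labelled libraries and 123, 107, 137 and 131 CPM in the KO-labelled ones. Libraries 3 and 7 were the lowest and libraries 8 and 1 the highest, 1 from each label at either end. Its log2 fold change was 0.089 (SE 0.11, adjusted p = 0.77; 95% interval of the fold change 0.899 to 1.26), and 0.042 without library 3. *Clpp* (ENSMUSG00000002660, chr17:56990305-56996188, plus strand), the proteolytic core that works with the unfoldase CLPX, measured 37.9, 40.4, 22.1, 39.9 and 35.3 CPM in the WT-labelled libraries and 37.8, 35.1, 42.9 and 40.0 CPM in the KO-labelled ones. Library 3 was at 56.9% of the median of the others, against 85.6% for *Lonp1*. The log2 fold change of *Clpp* was 0.15 (SE 0.17, adjusted p = 0.76), and 0.015 without library 3. The genes most like *Lonp1* over the 9 libraries were *Ecd* (r = 0.92), the calcium channel subunit gene *Cacna2d1* (r = 0.89) and *Mindy2* (r = 0.89), and without library 3 these were 0.92, 0.85 and 0.94.

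Of the inner-membrane proteases, *Yme1l1* varied least. *Yme1l1* (ENSMUSG00000026775, chr2:23156369-23199260, plus strand), whose active site faces the intermembrane space, measured 147, 156, 161, 159 and 148 CPM in the WT-labelled libraries and 155, 145, 159.9 and 160.0 CPM in the KO-labelled ones. The highest library was 1.11 times the lowest over all 9, the narrowest range of the 10 genes, and library 3 was the highest. The log2 fold change was 0.0067 (SE 0.081, adjusted p = 0.98; 95% interval of the fold change 0.885 to 1.14), and 0.016 without library 3. *Afg3l2* (ENSMUSG00000024527, chr18:67404764-67449172, minus strand), whose active site faces the matrix, measured 150.5, 134, 111, 127 and 127 CPM in the WT-labelled libraries and 138, 121, 136 and 144 CPM in the KO-labelled ones. Library 3 was lowest, library 1 highest and the labels overlapped. Its log2 fold change was 0.052 (SE 0.11, adjusted p = 0.86), and -0.0059 without library 3.

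*Htra2* (ENSMUSG00000068329, chr6:83051266-83055273, minus strand), a serine protease of the intermembrane space that can also promote apoptosis once released, ran the other way in library 3. It measured 13.6, 14.2, 29.0, 14.0 and 14.3 CPM in the WT-labelled libraries and 15.3, 15.7, 17.4 and 16.9 CPM in the KO-labelled ones. Library 3 was at 196% of the median of the others. Over all 9 libraries the log2 fold change was -0.062 (SE 0.23, adjusted p = 0.93; 95% interval of the fold change 0.666 to 1.38). Without library 3 it was 0.21 (SE 0.070, unadjusted p = 0.011, adjusted p = 0.28 in the edgeR test), and the 4 libraries labelled WT, at 13.6 to 14.3 CPM, did not overlap the 4 labelled KO, at 15.3 to 17.4 CPM. *Htra2* was the 1 member of 10 with all libraries labelled KO above all labelled WT in that comparison, against 3.45% of all genes tested. The 5 smooth muscle and pericyte markers, whose sum was 878 CPM in library 3, also divided these 8 libraries by label, with sums of 1347 to 1405 CPM under WT and 1168 to 1310.2 CPM under KO, and their part in the value of *Htra2* was not tested. The exons of *Htra2* overlap those of *Aup1* by 753 and *Loxl3* by 535 of 2946 bases, on the opposite strand. *Loxl3* measured 5.07 to 8.31 CPM in 8 libraries and 140.4 CPM in library 3, and *Aup1* 25.3 to 30.1 CPM and 41.9 CPM in library 3. Without the strand setting, reads of these neighbours cannot be told apart from those of *Htra2*, and their part in the value of library 3 was not tested.

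**Figure D2:**
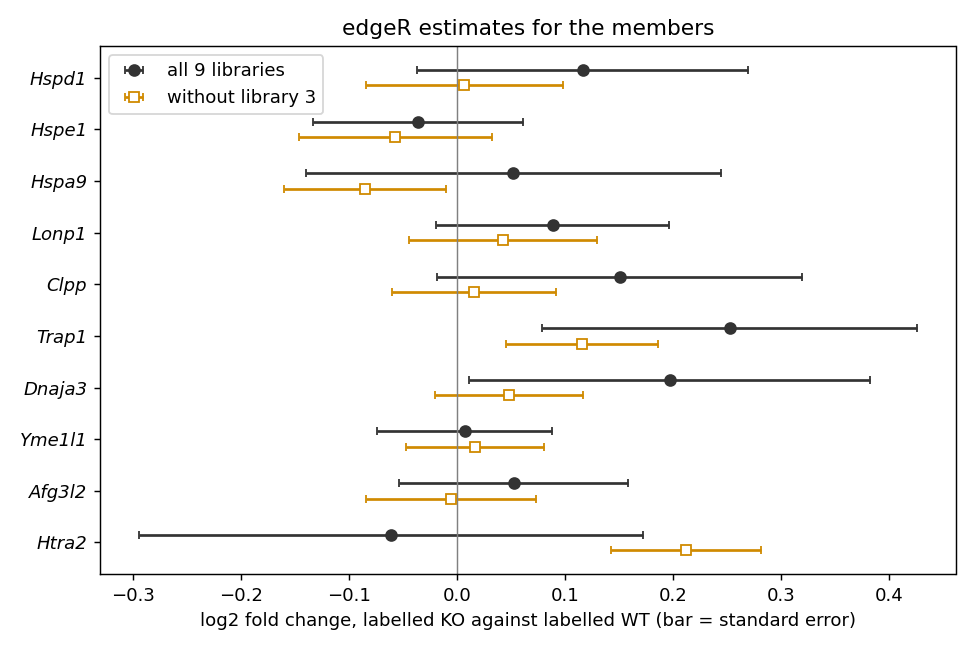
edgeR estimates for the 10 genes, as log2 fold change of the libraries labelled KO against those labelled WT (x axis), with bars for the standard error. Circles use all 9 libraries and squares leave out library 3. The estimates lie between -0.085 and 0.25, and that of *Htra2* changes from -0.062 to 0.21 when library 3 is left out.

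The members were also compared with each other as levels, in CPM per kb of exon. The medians over the 9 libraries were 202 for *Hspa9*, 66.6 for *Trap1*, 51.9 for *Hspd1*, 31.9 for *Dnaja3*, 31.0 for *Clpp* and 27.4 for *Lonp1*. They were 19.4 for *Yme1l1*, 17.8 for *Hspe1*, 13.6 for *Afg3l2* and 5.19 for *Htra2*. Outside library 3, the ranges of neighbours in this order overlapped for *Dnaja3* (30.6 to 36.3) and *Clpp* (28.7 to 35.1), for *Clpp* and *Lonp1* (24.4 to 31.4), and for *Yme1l1* (18.2 to 20.0) and *Hspe1* (16.4 to 21.3). The other neighbours did not overlap. *Hspe1* was thus lower per kb than its partner *Hspd1* in every library, with a highest value of 21.3 against a lowest of 34.1. The counting limits given above for this pair apply to these values too. The lengths are those of all annotated exons of a gene, and a gene with long alternative exons has a low value on this scale.

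Library 3 widened the spread of these genes. It lay below the other 8 libraries for 7 of the 10 genes, against 37.4% of all genes tested, and above them for *Yme1l1* and *Htra2*, against 37.7%. The summed level of the 10 genes was 1217 CPM in library 3 and 1627 to 1929 CPM in the others. The highest value of a gene was 1.75 times its lowest in the median over all 9 libraries and 1.23 times without library 3, where the median over the 8342 genes with a mean of at least 10 CPM was 1.29 times. The low cardiomyocyte and mitochondrial shares of library 3, given above, moved with these levels, and their part in them was not tested.

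The median Pearson r over the 45 pairs of members was 0.40 both across the 9 libraries and without library 3, but single pairs moved. Of the 45 pairs, 11 had a Pearson r over 0.8 and 16 an r below 0 across the 9 libraries, and without library 3 these counts were 3 and 8. *Clpp* and *Dnaja3* were the most alike over the 9 libraries, with an r of 0.98, and 0.78 without library 3. *Hspa9* and its J-protein *Dnaja3* went from 0.96 to 0.47, and *Hspa9* and *Trap1* from 0.91 to -0.01. *Lonp1* and *Afg3l2* stayed close, at 0.86 and 0.80. *Trap1* and *Htra2* went from -0.79 to 0.82, and *Clpp* and *Yme1l1* from -0.12 to 0.86. These values describe 9 or 8 libraries that share their labels and lanes, and no test was made on them.

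**Figure D3:**
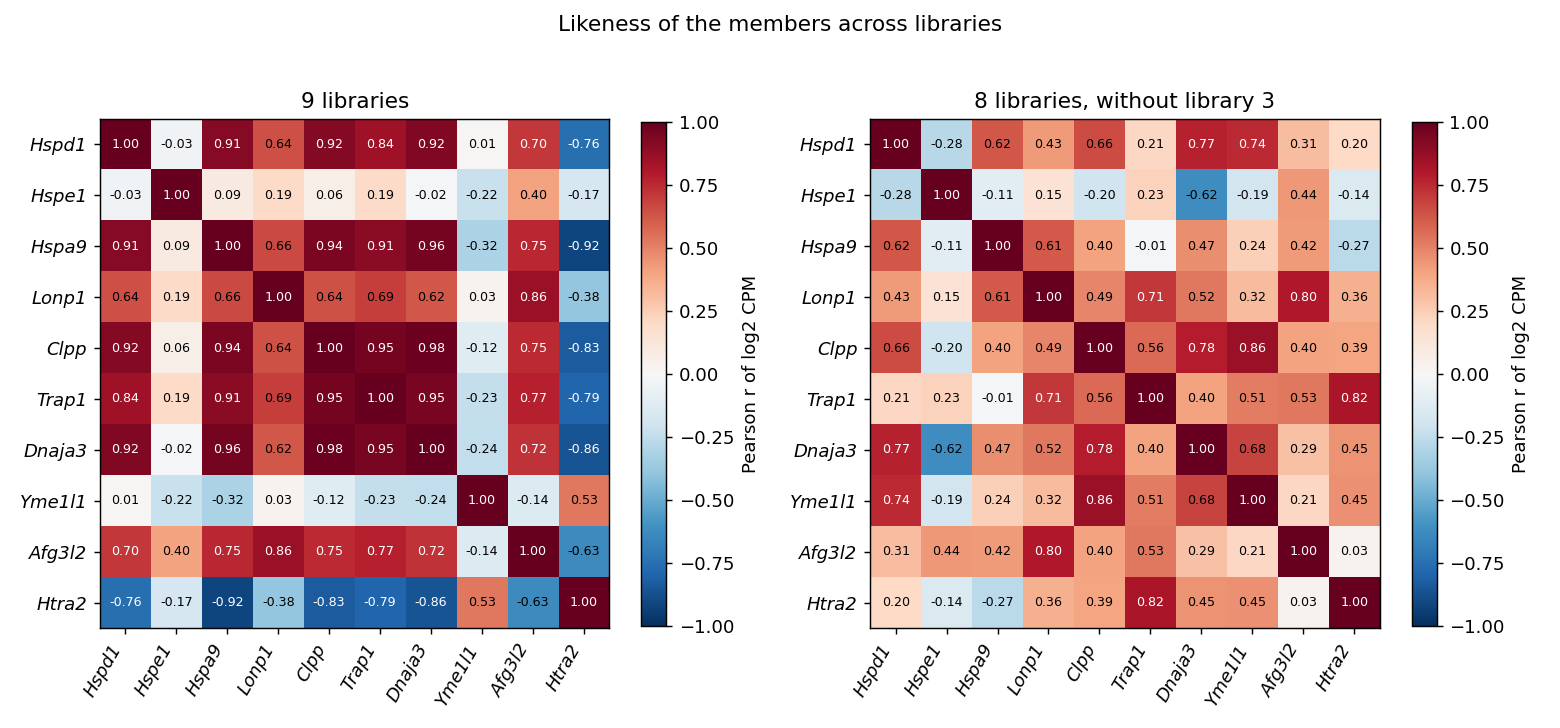
Pearson r of log2 CPM between the 10 genes (rows and columns), over 9 libraries at left and over 8 libraries, without library 3, at right. The colour scale runs from -1 (blue) to 1 (red). The red block that joins *Hspd1*, *Hspa9*, *Clpp*, *Trap1* and *Dnaja3* at left is paler at right, and the blue row of *Htra2* turns mostly red.

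The members are set here beside *Vdac2*, library by library. *Hspd1* was lowest in library 3 and rose from library 7 (114 CPM) through libraries 1, 5, 9, 4, 2 and 8 to library 6 (151 CPM). In that order *Vdac2* was at 19.1 to 21.3 CPM in libraries 7, 1, 5 and 9 and at 365 to 421 CPM in libraries 4, 2, 8 and 6. *Dnaja3* was lowest in library 3 and rose from library 7 (119.9 CPM) through libraries 5, 1, 9, 2, 4 and 6 to library 8 (142 CPM), with the same libraries below and above. *Hspe1* ran in another order, with its highest values in libraries 9, 1 and 5 and its lowest in libraries 8, 4 and 6. *Hspa9* was highest in library 8 (925 CPM), where *Vdac2* was 421 CPM, and next in libraries 1 and 5 (917 and 913 CPM), where *Vdac2* was 20.2 and 21.3 CPM. *Lonp1* was likewise high in library 1 (134 CPM) and library 8 (137 CPM). *Clpp* was highest in libraries 8 and 2 and, after library 3, lowest in libraries 7 and 5. *Trap1* was highest in library 9 (201 CPM), where *Vdac2* was 19.1 CPM, and library 8 (194 CPM). *Yme1l1* was lowest in libraries 7, 1 and 5 (145 to 148 CPM) and *Afg3l2* highest in libraries 1 and 9 (150.5 and 144 CPM), all with *Vdac2* at 19.1 to 21.3 CPM. *Htra2*, after library 3, was highest in libraries 8 and 9 and lowest in libraries 1 and 4. These are orders of single libraries. How many of all genes divide the libraries as *Hspd1* and *Dnaja3* do was not counted, so these orders do not set the members apart and nothing is read from them.

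The transcription factors of the response were read from the same libraries. *Atf5*, a factor linked to the induction of these chaperones, measured 35.9, 10.1, 11.8, 10.2 and 38.9 CPM from library 1 to library 5 and 11.9, 27.2, 11.8 and 19.6 CPM from library 6 to library 9. From lowest to highest the libraries were 2, 4, 8, 3, 6, 9, 7, 1 and 5. Between the labels its log2 fold change was -0.28 (SE 0.50, adjusted p = 0.84), and -0.44 without library 3. *Atf4*, the main factor of the integrated stress response, measured 91.0, 55.3, 98.7, 62.8 and 114 CPM from library 1 to library 5. It measured 73.9, 86.1, 73.1 and 83.1 CPM from library 6 to library 9. From lowest to highest its libraries were 2, 4, 8, 6, 9, 7, 1, 3 and 5. Between the labels its log2 fold change was -0.093 (SE 0.21, adjusted p = 0.87 in the edgeR test), and -0.035 without library 3. *Ddit3* measured 14.6, 13.4, 7.98, 11.8 and 20.0 CPM from library 1 to library 5 and 13.3, 17.0, 12.2 and 13.7 CPM from library 6 to library 9. From lowest to highest its libraries were 3, 4, 8, 6, 2, 9, 1, 7 and 5. Its log2 fold change between the labels was 0.050 (SE 0.23, adjusted p = 0.84 in the edgeR test), and -0.10 without library 3. For *Atf5*, *Atf4* and *Ddit3* alike, libraries 2, 4, 6 and 8 (*Vdac2* at 365 to 421 CPM) lay below libraries 1, 5, 7 and 9 (*Vdac2* at 19.1 to 21.3 CPM). The estimates between the labels do not measure this. How many of all genes run in such an order was not counted, and its cause was not tested. Among 5 regulators 0 were called by edgeR or DESeq2, and *Cebpb*, a C/EBP factor, was the 1 with an unadjusted p under 0.05 (log2 fold change 0.50, SE 0.16, adjusted p = 0.68), against 6.11% of all genes. Without library 3 the estimate of *Cebpb* was 0.59 (SE 0.12, adjusted p = 0.077), and its libraries labelled KO all lay above those labelled WT, against 3.45% of all genes.

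**Figure D4:**
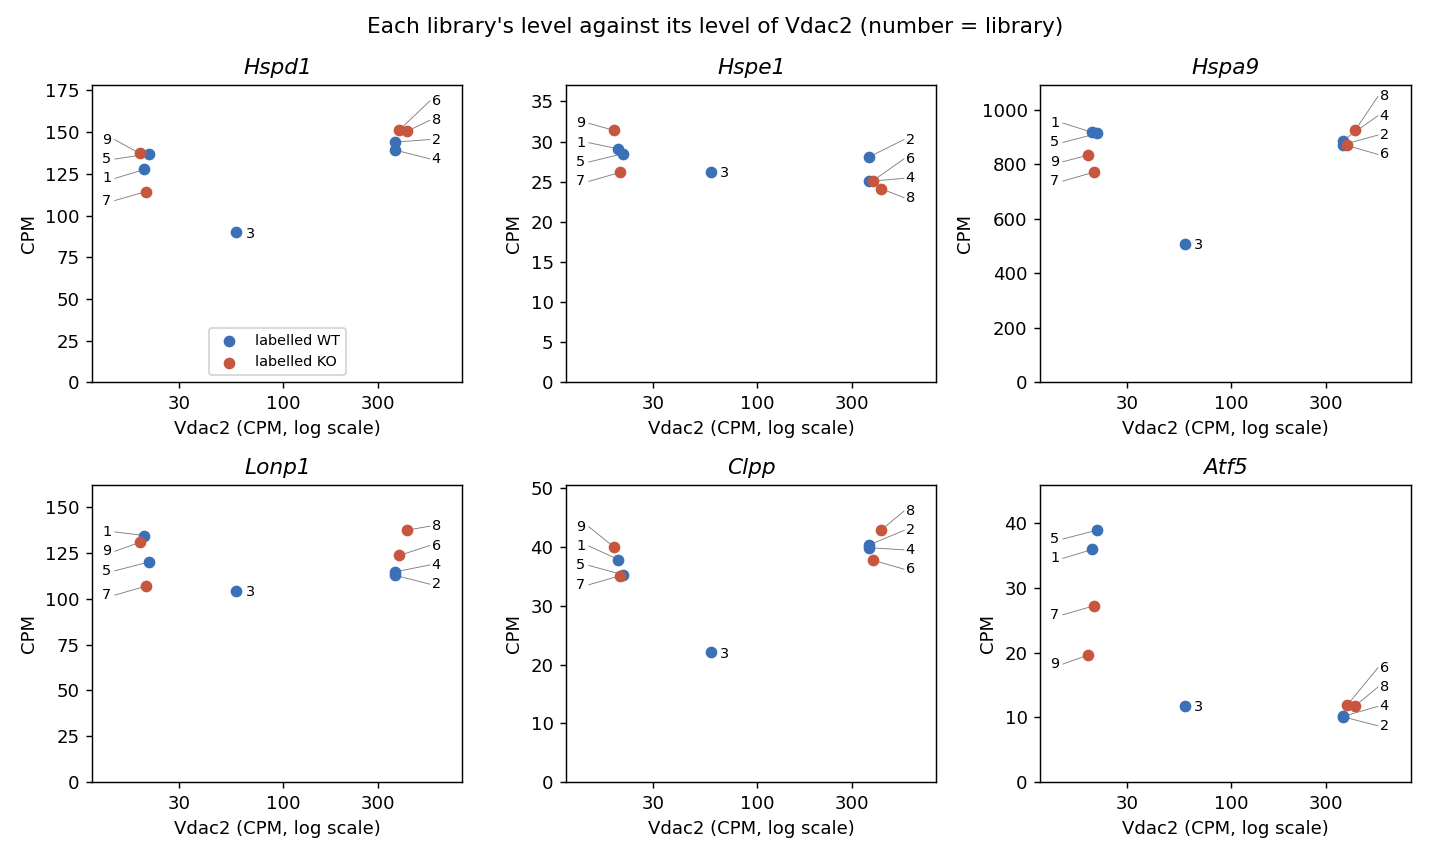
Level of 5 of the genes and of *Atf5* in each library (CPM, y axis from 0) against the level of *Vdac2* in that library (CPM, x axis, log scale). Points are libraries with their number, coloured by deposited label. *Atf5* ranges from 10.1 to 38.9 CPM, whereas the chaperones and proteases vary little outside library 3.

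Other genes of the same system were counted from lists drawn up by hand. Of 23 listed partners, other mitochondrial chaperones, co-chaperones and proteases, 22 were tested and 0 were called by edgeR or DESeq2. Over the 9 libraries 0 had an unadjusted p under 0.05. The estimate was above 0 for 20 of them (90.9%, against 47.3% of all genes tested), with a median log2 fold change of 0.16, and 0.065 without library 3. Library 3 lay below the other libraries for 18 of the 22, against 37.4% of all genes. The largest estimates were those of *Immp2l*, an inner-membrane peptidase (0.39, adjusted p = 0.70, and 0.18 without library 3), *Spg7*, the partner subunit of AFG3L2 (0.38, adjusted p = 0.68, and 0.23 without library 3), and *Mipep*, the mitochondrial intermediate peptidase (0.28, adjusted p = 0.73, and 0.079 without library 3). Of these, *Spg7* alone had an unadjusted p under 0.05 without library 3 (0.021 in the edgeR test, adjusted p = 0.33). In that fit 1912 of all 16251 genes did. Of 11 genes of the import translocases 0 were called by either tool, and *Timm17b* was the 1 with an unadjusted p under 0.05 (log2 fold change 0.23, adjusted p = 0.68, and 0.21 without library 3), a share close to the 6.11% of all genes. *Pam16* and *Timm44*, which tie the Hsp70 motor to the import channel, had estimates of 0.34 and 0.25 (SE 0.29 and 0.19, adjusted p = 0.71 and 0.69), and 0.26 and 0.10 without library 3. *Pam16* was a low gene, at 0.495 to 1.52 CPM over the 9 libraries, where *Timm44* was at 47.4 to 105 CPM. The median of the import genes was 0.12, and 0.035 without library 3.

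Chaperones outside mitochondria were counted in the same way. Of 15 chaperones of the cytosol and the endoplasmic reticulum, 0 were called by edgeR or DESeq2. Over the 9 libraries 0 had an unadjusted p under 0.05, the estimate was below 0 for 12, and the median log2 fold change was -0.20. Library 3 lay above the other libraries for 13 of the 15, against 37.7% of all genes, and without library 3 the median was 0.061, of the same sign as that of the 10 mitochondrial genes. *Hspb1*, a small heat shock protein gene, measured 122 CPM in library 3 and 13.5 to 28.4 CPM in the others (log2 fold change -1.03, adjusted p = 0.68, and 0.026 without library 3). *Hsp90aa1*, the cytosolic counterpart of *Trap1*, measured 111 CPM and 23.6 to 47.3 CPM (-0.87, adjusted p = 0.68, and -0.36 without library 3), and *Pdia3*, a protein disulfide isomerase gene, 417 CPM and 115 to 155 CPM (-0.66, adjusted p = 0.68, and -0.19 without library 3). Of these named genes *Pdia3* alone had an unadjusted p under 0.05 without library 3 (0.029 in the edgeR test, adjusted p = 0.36), as did 1912 of all 16251 genes in that fit. Whether the mitochondrial and the other chaperones differ as lists was not tested.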

How the data were processed

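Total RNA of the left ventricle was depleted of ribosomal RNA and sequenced by the authors as 50-base single-end reads of a stranded kit. Per the labels and the submitters' processing notes, reads were aligned to GRCm38 with STAR 2.7.2c and counted with featureCounts 1.6.3, and the deposited values are raw counts per gene. A WT sample was left out of the published analysis for RNA quality without being named, so all 9 libraries were used. 52403 identifiers had a symbol. All genes were fitted in edgeR 4.0.16 under R 4.3.3 with filterByExpr, TMM normalization and the quasi-likelihood test, KO label against WT label, with Benjamini-Hochberg adjustment over 16322 genes. Correlations used log2 CPM with a prior count of 2. No library was a copy of another (chi-square over degrees of freedom at least 6.72 for every pair). Scripts were tested on simulated data. The members and the 4 lists of other genes were chosen with earlier results of these data known. Genes named were the members, *Vdac2*, *Atf4*, *Atf5*, *Ddit3*, the 3 genes most like *Hspd1* and *Lonp1*, and, from each list, genes called and the 3 with the largest change. Neighbours and cell markers bear on single results. Alternatives were DESeq2 1.42.0, RLE normalization, other filters, mitochondrially encoded genes left out and each library left out.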

Additional observations from a re-analysis of the deposited data

Results flagged for a closer look

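In 12 of 60 tests of 1 gene in 1 label, over the 30 genes named by rule, a library lay far from the others of its label by Dixon's criterion. Chance flags about 1 in 20 such groups, but many of these genes were chosen for values that library 3 moves, and library 3 lay outside the other 8 libraries for 37.4% (below) and 37.7% (above) of all genes, so the number is a description. All 12 were library 3, labelled WT. Among the members it was low for *Hspa9* (509 CPM), *Clpp* (22.1 CPM), *Trap1* (96.8 CPM) and *Dnaja3* (66.7 CPM) and high for *Htra2* (29.0 CPM). Among other genes it was low for *Alas1* (97.0 CPM), *Opa3* (43.3 CPM), *Spg7* (33.1 CPM) and *Mipep* (28.6 CPM) and high for *Hspb1* (122 CPM), *Hsp90aa1* (111 CPM) and *Pdia3* (417 CPM).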

How the results depend on the processing

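Over 14 alternatives 0 of the 10 members were called by edgeR or DESeq2, and the lowest adjusted p was 0.28, for *Htra2* without library 3. Of 140 member estimates 132 kept their sign and 8 turned, all with a library left out. Leaving out 1 library at a time gave log2 fold changes of -0.012 to 0.037 for *Yme1l1* (below 0 without libraries 1, 5, 8 or 9), -0.085 to 0.097 for *Hspa9*, -0.0059 to 0.11 for *Afg3l2* and -0.13 to 0.21 for *Htra2* (all 3 turned without library 3), -0.12 to 0.011 for *Hspe1* (turned without library 8) and -0.23 to 0.86 for *Vdac2* (below 0 without libraries 6 or 8). The members' median ran from 0.016 (without library 3) to 0.13 (without library 7), *Hspd1* from 0.0067 to 0.20, *Lonp1* from 0.040 to 0.16, *Clpp* from 0.015 to 0.21, *Trap1* from 0.12 to 0.30 and *Dnaja3* from 0.048 to 0.24. The number of all genes called was 9 by edgeR, 70 by DESeq2, 0 with at least 10 counts required in every library (875 at an unadjusted p under 0.05), and 5 to 62 with 1 library left out, 62 without library 3 and 5 without libraries 1, 2 or 4. The 9 include *Xist* and *Ddx3y*, genes that divide the libraries by sex (adjusted p = 1.08e-07 each in the edgeR test). *Xist* was at most 0.152 CPM under WT and *Ddx3y* at most 0.0264 CPM under KO. The filter of 10 counts in every library therefore leaves both out. No paired analysis was possible because the labelled groups share no replicate number. Every member had at least 368 counts in every library, and the cause of the other shifts was not tested. The values without library 3 for regulators and list genes were added after seeing the data.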
